A study of Rattus norvegicus with 15 samples.

Results

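The genes described here are those of glycolysis and of the response to low oxygen, read in the rat posterior cerebral artery after its blood supply was rerouted by surgery. The list holds 35 genes: 15 glycolytic enzymes, 4 glucose and lactate transporters, 4 kinases that control glycolysis or the entry of pyruvate into mitochondria, 4 genes of the hypoxia-inducible factors and the prolyl hydroxylases that sense oxygen, and 8 effectors that hypoxia is known to induce. A gene was taken where the platform table gives its symbol to a probe set, and the probe set with the highest mean signal over the arrays stood for it. Of the 35, 34 had a probe set and 33 entered the statistical fit, out of 10411 genes with a probe set of their own on the array. Pkm was skipped, because its only probe set is shared with a further symbol. Gapdh is read by control probe sets of the array, so its signal is given below but was not tested.

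The data are 15 Affymetrix Rat230A arrays in 5 groups of 3, from Sprague Dawley rats 7 weeks old and weighing 300 to 350 g, and each array held RNA pooled from the ipsilateral posterior cerebral arteries of 8 animals. In the 3VO groups (3-vessel occlusion) both vertebral arteries were electrocoagulated and the left common carotid artery was ligated, and the artery was taken after 24 h or after 3 d. In the sham groups of the same times those vessels were laid open and left untouched. All operated animals had isoflurane and buprenorphine, whereas for the intact control animals the labels name neither. Vessels of every group were filled with latex under the vasodilator Papaverin, and the series describes 3VO as a model of hypoperfusion without ischaemia. The labels also speak of repeated hybridisation, so the 3 arrays of a group may share animals, and the p-values reflect only how much these arrays varied, which may be technical. Replicate numbers used here follow the array order within each group and link no arrays between groups. The array of sham at 3 d called replicate 1 carries a treatment text that describes the occlusion. It was kept with the sham arrays that its title and source name, and some of the values at 3 d are given both with and without it.

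Glycolysis turns glucose into pyruvate and, through lactate dehydrogenase, into lactate, and so yields ATP without oxygen. When oxygen is scarce, prolyl hydroxylases stop marking the alpha subunits of the hypoxia-inducible factors for destruction. The stabilised factors then bind a short element whose core is written ACGTG or GCGTG and raise transcription of glycolytic enzymes, the glucose transporter Slc2a1, Vegfa and others. Hmox1, the haem-degrading enzyme, answers to haem and oxidative stress as well. In an artery, smooth muscle and endothelium both rely heavily on glycolysis.

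To show how that core looks in front of members of the list, the lines below give the 250 bases before the RefSeq start of Ldha, Ddit4 and Pfkp on build GRCr8, in the gene's own direction, with the core in capitals on either strand. These members were chosen because their signal on the 3VO arrays at 24 h did not overlap that on the sham arrays and the RefSeq table holds 1 window for each. The windows are chr1:106507842-106508091 on the plus strand for Ldha, chr20:28437038-28437287 on the minus strand for Ddit4, and chr17:68639563-68639812 on the plus strand for Pfkp.
Ldha: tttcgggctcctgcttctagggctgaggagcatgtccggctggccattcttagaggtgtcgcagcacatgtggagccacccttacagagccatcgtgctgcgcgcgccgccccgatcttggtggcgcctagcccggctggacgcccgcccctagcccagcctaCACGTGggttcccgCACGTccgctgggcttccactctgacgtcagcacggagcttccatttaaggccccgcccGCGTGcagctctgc
Ddit4: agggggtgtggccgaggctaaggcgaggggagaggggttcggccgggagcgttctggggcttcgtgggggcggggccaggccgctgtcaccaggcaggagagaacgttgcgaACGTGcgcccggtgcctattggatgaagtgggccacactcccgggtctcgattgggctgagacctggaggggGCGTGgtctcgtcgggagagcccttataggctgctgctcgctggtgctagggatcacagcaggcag
Pfkp: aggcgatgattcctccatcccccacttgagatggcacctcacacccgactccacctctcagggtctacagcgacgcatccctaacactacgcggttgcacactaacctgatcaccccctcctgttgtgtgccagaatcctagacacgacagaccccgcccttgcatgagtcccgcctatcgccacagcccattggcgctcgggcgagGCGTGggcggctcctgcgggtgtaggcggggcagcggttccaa
Ldha has 3 stretches in capitals, the first of them a CACGTG that reads the same on both strands, Ddit4 has 2 and Pfkp has 1. Over the full window of 250 bases before to 50 after the start, 22 of the 31 members with an entry held ACGTG or GCGTG on either strand, or 71.0%. Of all 27457 genes with a window, 44.6% did. By role, 11 of 14 glycolytic enzymes and 4 of 6 hypoxia-induced effectors held a match. A match is a string of letters and no measured binding, and no array of the series measured binding.

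The tissue matched its label in part. All 8 smooth muscle markers were measured, with Acta2 between 26700 and 84600 and Myh11 between 43600 and 116000, and 6 of 8 endothelial markers, with Pecam1 between 999 and 5880. Brain tissue was also present: 10 of 12 neuron markers were measured and none was at 0 on any array, with Snap25 between 16600 and 125000. The summed signal of the 10 neuron markers was 127000 to 345000 on intact arrays, 68900 to 103000 in sham at 24 h, 96000 to 208000 in 3VO at 24 h, 81200 to 122000 in sham at 3 d and 74600 to 175000 in 3VO at 3 d. Choroid plexus markers stood apart on intact replicate 2 and sham at 3 d replicate 3. In such mixed RNA, fewer cells of a type and less RNA per cell cannot be told apart.

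None of the 33 members in the fit passed a Benjamini-Hochberg adjusted p of 0.05 in limma's moderated test of 3VO against sham at 24 h, where 8 of all 15737 probe sets tested did, or 0.0508%. At an unadjusted p under 0.05 there were 4 members, Ldha, Eno1, Pfkp and Hmox1, all higher in 3VO, beside 6.97% of all probe sets. At 3 d no member passed and 0% of all probe sets did. Hmox1 alone of the members lay under an unadjusted p of 0.05 there, beside 4.73% of all. The change of the 3VO effect between the times passed for no member, again with 0% of all probe sets called, and no member lay under an unadjusted 0.05. The adjusted p of the members was between 0.414 and 1 at 24 h. A p that misses the threshold does not show that a gene was unchanged, and the intervals given below show how large a difference each measurement leaves room for.

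Ldha, which makes the lactate dehydrogenase subunit that favours lactate production, had the smallest p of the list at 24 h. Its signal on the 3 replicates was 17293, 16675 and 16832 in sham at 24 h and 24291, 21122 and 28142 in 3VO at 24 h, against 15187, 20659 and 19212 in intact arteries. Every 3VO array at 24 h was above every sham and every intact array. The log2 difference from sham was 0.52 (95% interval 0.21 to 0.84, 1.44-fold), with a limma p of 0.00321 that became 0.414 after Benjamini-Hochberg adjustment over all probe sets. After 3 d the signal was 20942, 17065 and 16762 in sham and 20298, 18985 and 24762 in 3VO, and the groups overlapped. That log2 difference was 0.22 (-0.09 to 0.54). The highest sham array was the one with the conflicting treatment text, and without it the difference was 0.33, with an adjusted limma p of 0.831, in a range of 0.831 to 1 over all alternatives. Ldhb, the subunit that favours lactate oxidation, read 51100, 53200 and 56278 in sham and 56387, 49617 and 62518 in 3VO at 24 h. Intact arteries gave 58719, 83810 and 55502, sham at 3 d 54623, 50609 and 56860, and 3VO at 3 d 70462, 41221 and 48248. All groups of Ldhb overlapped, and its log2 difference was 0.06 (-0.34 to 0.47) at 24 h and -0.06 (-0.46 to 0.35) at 3 d.

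Phosphofructokinase, which commits sugar to glycolysis, is encoded by Pfkm, Pfkl and Pfkp. Pfkp read 11252, 12216 and 8915 in sham and 18528, 12666 and 16950 in 3VO at 24 h, without overlap, although the lowest 3VO array was close to the highest sham array. Its log2 difference was 0.57 (0.05 to 1.08), with an adjusted limma p of 0.668. At 3 d Pfkp read 12472, 11109 and 6970 in sham and 9297, 10751 and 15738 in 3VO, and the groups overlapped. Intact arteries, at 20137, 14008 and 14898, lay above both sham groups and overlapped 3VO at 24 h. Pfkm read 16773, 15260 and 15923 in sham and 20848, 14289 and 20073 in 3VO at 24 h, so that 1 of the 3 3VO arrays lay below all sham arrays. The log2 difference of Pfkm was 0.18 at 24 h and -0.08 at 3 d. Its other probe set, of lower signal, gave 0.53 and -0.07. Eno1, the enolase that makes phosphoenolpyruvate, read 37253, 31561 and 33809 in sham and 43642, 38680 and 45152 in 3VO at 24 h, again without overlap. The remaining arrays read 38209, 45078 and 39407 in intact arteries, 42233, 32981 and 40452 in sham at 3 d and 39172, 32634 and 39771 in 3VO at 3 d. The log2 difference of Eno1 was 0.31 (0.03 to 0.59) at 24 h, with an adjusted limma p of 0.668, and -0.05 (-0.33 to 0.23) at 3 d.

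The hexokinases, which trap glucose in the cell, did not separate the groups. Hk1 read 10454, 10998 and 8967 in sham and 16094, 10771 and 10896 in 3VO at 24 h, where a single 3VO array was high. It read 14833, 18238 and 7724 in intact arteries, where it spread most widely, and 10042, 11683 and 14934 in sham and 14113, 7882 and 15616 in 3VO at 3 d. Hk2, the form that hypoxia is known to induce, read 1588, 1101 and 1390 in sham and 1494, 1193 and 1216 in 3VO at 24 h. The log2 difference of Hk2 was -0.05 (-0.59 to 0.48). Intact arteries gave 1326, 1433 and 1052, sham at 3 d 1121, 1206 and 1490, and 3VO at 3 d 1410, 1509 and 1589, and the arrays of 3 d overlapped. Gapdh, the dehydrogenase of triose phosphate, read 90480, 92948 and 86543 in sham and 113344, 103614 and 106674 in 3VO at 24 h at the 3' control probe set. The groups did not overlap, but this control was outside the fit and has no test. It was 110114, 120522 and 101050 in intact arteries, 99612, 92298 and 100354 in sham at 3 d, and 100088, 86420 and 94074 in 3VO at 3 d. The ratio of the 3' to the 5' Gapdh control, a sign of RNA integrity, was 1.03 to 1.14 in sham and 1.11 to 1.14 in 3VO at 24 h, and 1.05 to 1.59 in intact arteries. At 3 d it was 1.22 to 1.41 in sham and 1.07 to 1.2 in 3VO, so the groups did not overlap in this ratio. The same ratio of the actin control was 1.68 to 1.97 in sham and 1.61 to 1.77 in 3VO at 24 h, 1.88 to 2.33 in sham and 1.7 to 2.4 in 3VO at 3 d, and 2.05 to 3.1 in intact arteries. The part of RNA integrity in these values was not tested.

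**Figure D1:**
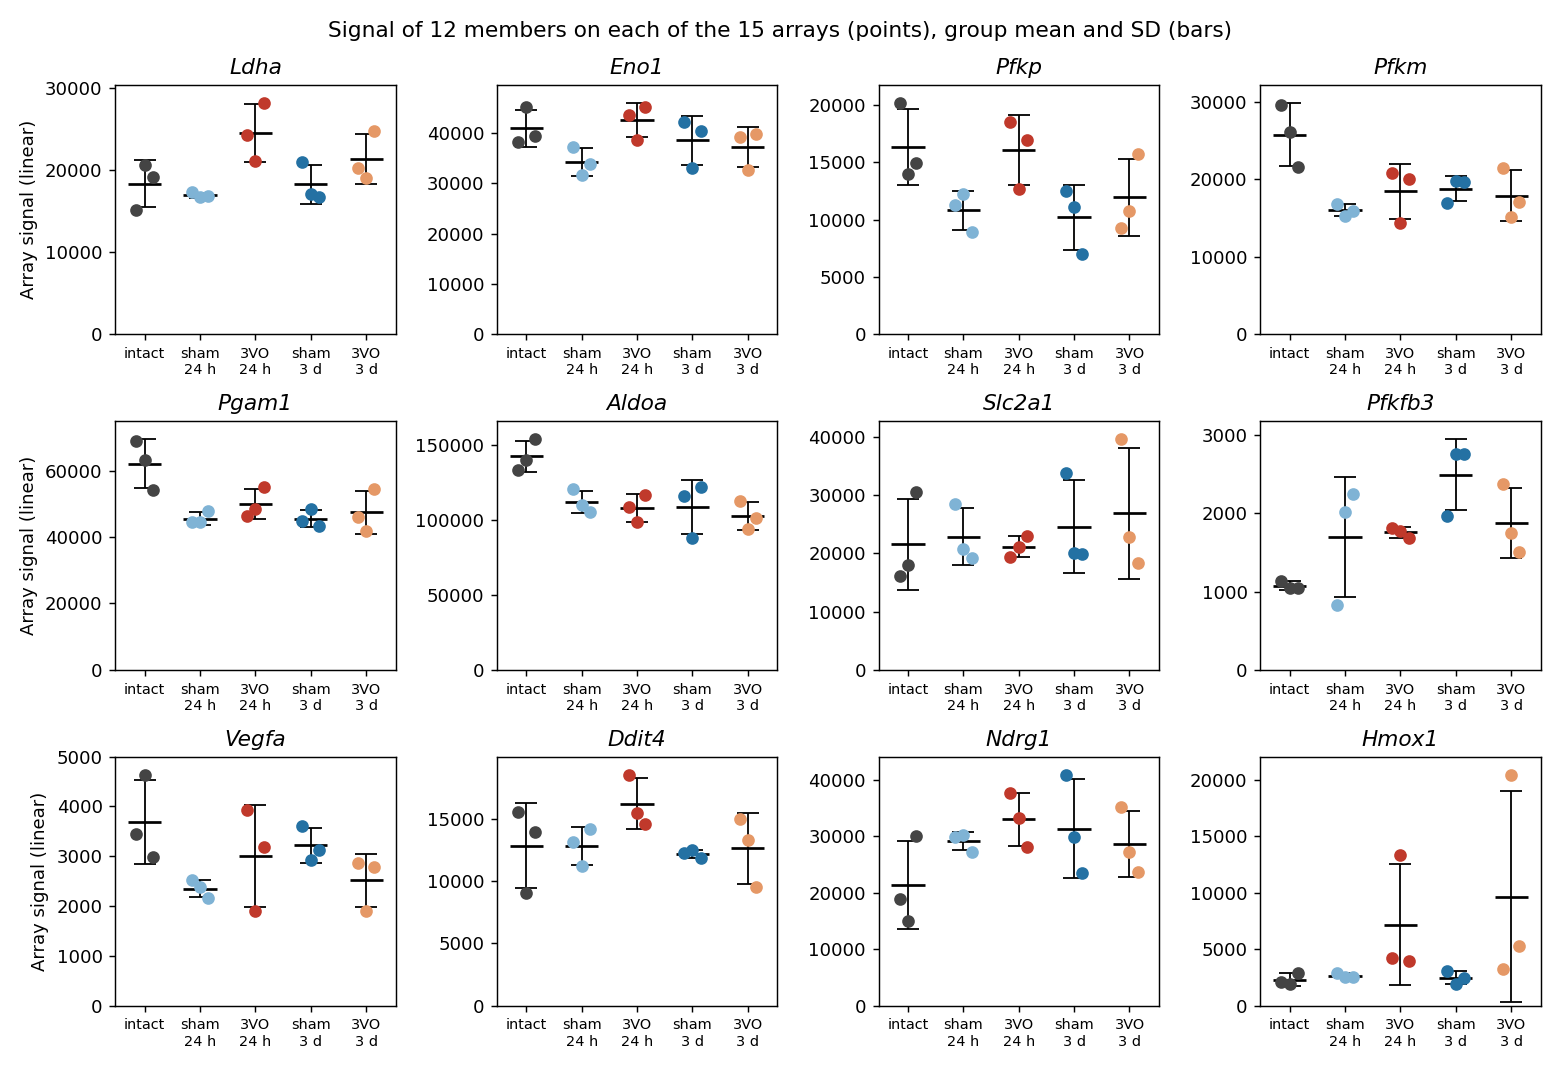
Linear array signal (vertical axis from 0, set per gene) of 12 members on each of the 15 arrays, with points for replicates 1 to 3 from left to right, horizontal lines for the group mean and bars for the SD (n = 3). Ldha, Eno1 and Pfkp do not overlap between 3VO and sham at 24 h, and the mean of Hmox1 in 3VO is set by 1 array at each time.

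On the probe sets used, transporters and control kinases gave no separation of 3VO from sham at 24 h. Slc2a1, the main glucose transporter of brain endothelium, read 28456, 20813 and 19240 in sham and 19357, 21018 and 23024 in 3VO at 24 h, and 33774, 19996 and 19936 in sham and 39540, 22719 and 18308 in 3VO at 3 d. Intact arteries gave 16018, 17994 and 30505, so the groups overlapped throughout. Its log2 differences were -0.09 (-0.72 to 0.53) and 0.10 (-0.53 to 0.72). At 24 h Slc2a1 stood at 0.08 without sham replicate 1. At 3 d it stood at 0.35 without the sham array of conflicting text and at -0.03 without either of the other sham arrays. Without 3VO replicate 1 it stood at -0.22, so leaving out 1 array could turn its direction. Over the alternatives other than leaving out 1 array, Slc2a1 ran from -0.11 to 0.66 at 24 h and from -0.03 to 0.64 at 3 d. Slc2a3, the neuronal glucose transporter, read 1961, 3046 and 2066 in sham and 3518, 2208 and 3383 in 3VO at 24 h, with overlap and a log2 difference of 0.36 (-0.39 to 1.11). With the neuron marker mean as a covariate its direction turned, to -0.38. Slc2a3 read 5273, 3743 and 1947 in intact arteries, 2318, 2624 and 1776 in sham at 3 d and 2162, 1952 and 3833 in 3VO at 3 d. Its highest reading was on intact replicate 1, the array with the highest neuron marker mean of the 15. Slc16a3, the lactate exporter of glycolytic cells, read 1421, 1521 and 1870 in sham and 2781, 1851 and 1792 in 3VO at 3 d, with overlap and a log2 difference of 0.39 (-0.18 to 0.97). The other arrays of Slc16a3 gave 1410, 2010 and 1084 in intact arteries, 1758, 1740 and 2081 in sham at 24 h and 1959, 1892 and 1499 in 3VO at 24 h. Pdk4, a kinase that shuts pyruvate out of the mitochondrion, read 1713, 2994 and 2916 in sham and 2831, 2290 and 2388 in 3VO at 24 h. At 3 d it read 2773, 2332 and 2618 in sham and 2646, 2772 and 2390 in 3VO, and 2702, 2061 and 2292 in intact arteries. The log2 difference of Pdk4 was 0.02 (-0.46 to 0.49) at both times. For Slc16a1, Pdk1 and Pdk2 the log2 differences ran from 0.00 to 0.07 at 24 h and from -0.28 to -0.08 at 3 d. Pdk1 was lower in 3VO at 3 d without overlap on the probe set used. Its other probe set, with a lower signal, gave -0.18 at 24 h and 0.03 at 3 d. The other Pdk2 probe set, also of lower signal, gave 1.21 at 24 h (adjusted limma p 0.818) and 0.59 at 3 d.

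Hif1a, the alpha subunit of a hypoxia-inducible factor, read 27684, 23877 and 24334 in sham and 23961, 25044 and 20731 in 3VO at 24 h. At 3 d Hif1a read 23664, 24805 and 27799 in sham and 22638, 28800 and 20452 in 3VO, and its log2 differences were -0.12 (-0.41 to 0.17) and -0.10 (-0.39 to 0.19). Intact arteries, at 26597, 23247 and 26781, lay within the same range. These factors are controlled chiefly through protein stability, which the arrays do not read. Epas1, the alpha subunit typical of endothelium, read 28688, 32285 and 29683 in sham and 21558, 26913 and 28880 in 3VO at 24 h, where the highest 3VO array just overlapped the lowest sham array. Epas1 read 28749, 33848 and 34260 in sham and 29955, 34518 and 31586 in 3VO at 3 d, and 19459, 28970 and 29475 in intact arteries. Its log2 difference was -0.24 (-0.58 to 0.10) at 24 h and -0.01 (-0.35 to 0.33) at 3 d. The hydroxylase genes Egln1 and Egln3, which are themselves known as hypoxia-inducible, had log2 differences of 0.12 (-0.20 to 0.43) and -0.34 (-1.07 to 0.38) at 24 h, and of 0.21 and -0.25 at 3 d. Other probe sets, all of lower signal, gave -0.57 at 24 h and -0.29 at 3 d for Egln1. In the same order they gave -0.79 and -0.05 for Hif1a and -0.27 and -0.35 for Epas1.

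The hypoxia-induced effectors included the largest differences of the list. Hmox1 read 2893, 2540 and 2564 in sham and 4193, 13369 and 3942 in 3VO at 24 h, and 3100, 1907 and 2442 in sham and 3279, 20432 and 5291 in 3VO at 3 d, against 2068, 1888 and 2941 in intact arteries. All 3VO arrays were above all sham and all intact arrays at both times, and replicate 2 was far above the others at each. That shared number comes from array order alone, and the labels do not link those arrays. The log2 difference was 1.18 (0.02 to 2.34, adjusted limma p 0.713) at 24 h and 1.53 (0.38 to 2.69, adjusted limma p 0.953) at 3 d. Without replicate 2 of 3VO at that time it was 0.61 at 24 h and 0.77 at 3 d. Macrophages are a main site of Hmox1, and their 8 measured markers were all higher in 3VO than in sham at both times, by a median of 0.51 and 0.76, though none passed. The summed signal of those markers was 77100 to 116000 in sham and 134000 to 204000 in 3VO at 24 h, and 72700 to 76800 in sham and 112000 to 144000 in 3VO at 3 d. None of them was at 0 on any array. As a mean of log2 signals centred over the 15 arrays, macrophage markers stood at 0.38, 0.94 and 0.53 on the 3 3VO arrays at 24 h and at 0.11, 0.52 and 0.33 at 3 d, highest on replicate 2 each time. Their part in the Hmox1 signal was not tested.

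Hmox1 was the only member that passed under any alternative fit of 3VO against sham. With the mean of the neuron markers as a covariate its log2 difference was 2.33 at 24 h, with an adjusted limma p of 0.0406, and 1.95 at 3 d, with an adjusted limma p of 0.0827. Over all alternatives the adjusted limma p of Hmox1 ranged from 0.0324 to 0.999 at 24 h and from 0.0612 to 1 at 3 d. In the same fit Hmox1 in sham against intact stood at -1.49 at 24 h and -1.23 at 3 d, from 0.24 and 0.11 without the covariate. At each time Hmox1 was highest on 3VO replicate 2, where the neuron marker mean was -0.33 at 24 h and -0.85 at 3 d. On the other 3VO arrays that mean was positive, at 0.51 and 0.66, then 0.36 and 0.47. On sham replicates 1 and 3 at 24 h it was -0.87 and -0.89, and Hmox1 read no more than 2893 there. Both 3VO arrays of replicate 2 were then left out, a choice made after their values were seen. The fit with the same covariate gave 1.10 at 24 h and 1.07 at 3 d, with adjusted limma p-values of 0.856 and 1.

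Ddit4, an inhibitor of mTOR signalling, read 13153, 11196 and 14198 in sham and 18507, 15502 and 14617 in 3VO at 24 h, without overlap but with only a narrow gap. Its log2 difference was 0.33 (-0.09 to 0.76), and at 3 d it was 0.02 (-0.40 to 0.44). Intact arteries spread from below to above the sham arrays, at 15547, 9034 and 13974, and the arrays of 3 d read 12228, 12520 and 11860 in sham and 15005, 13331 and 9518 in 3VO. Vegfa, the angiogenic growth factor, read 2515, 2384 and 2160 in sham and 3937, 1899 and 3179 in 3VO at 24 h, and 3612, 2922 and 3121 in sham and 2865, 1899 and 2780 in 3VO at 3 d. In intact arteries Vegfa read 3447, 4630 and 2990. Its arrays overlapped at 24 h and were lower in 3VO without overlap at 3 d. The log2 differences of Vegfa were 0.29 (-0.27 to 0.85) and -0.37 (-0.93 to 0.18), and the change between the times was -0.66 (-1.45 to 0.12). At 24 h Vegfa stood at 0.06 without 3VO replicate 1, at 0.59 without 3VO replicate 2 and at -0.10 with the neuron covariate. At 3 d it stood at -0.18 without 3VO replicate 2. The other Vegfa probe set, with a lower signal, gave 0.43 and 0.53, so the probe sets disagreed in direction at 3 d. Ndrg1, a hypoxia-induced stress gene, read 29902, 30167 and 27265 in sham and 37627, 33148 and 28115 in 3VO at 24 h, with overlap and a log2 difference of 0.17 (-0.34 to 0.68). Of its intact arrays 2 were lower, at 18953 and 14988, and the third read 30070, while at 3 d sham read 40821, 29846 and 23426 and 3VO 35128, 27185 and 23605. For Adm, Bnip3, P4ha1 and P4ha2 the log2 differences at 24 h ran from -0.11 to 0.33 on the probe sets used, and every interval included 0. The other P4ha2 probe set, of lower signal, gave -0.63 at 24 h and -0.52 at 3 d.

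**Figure D2:**
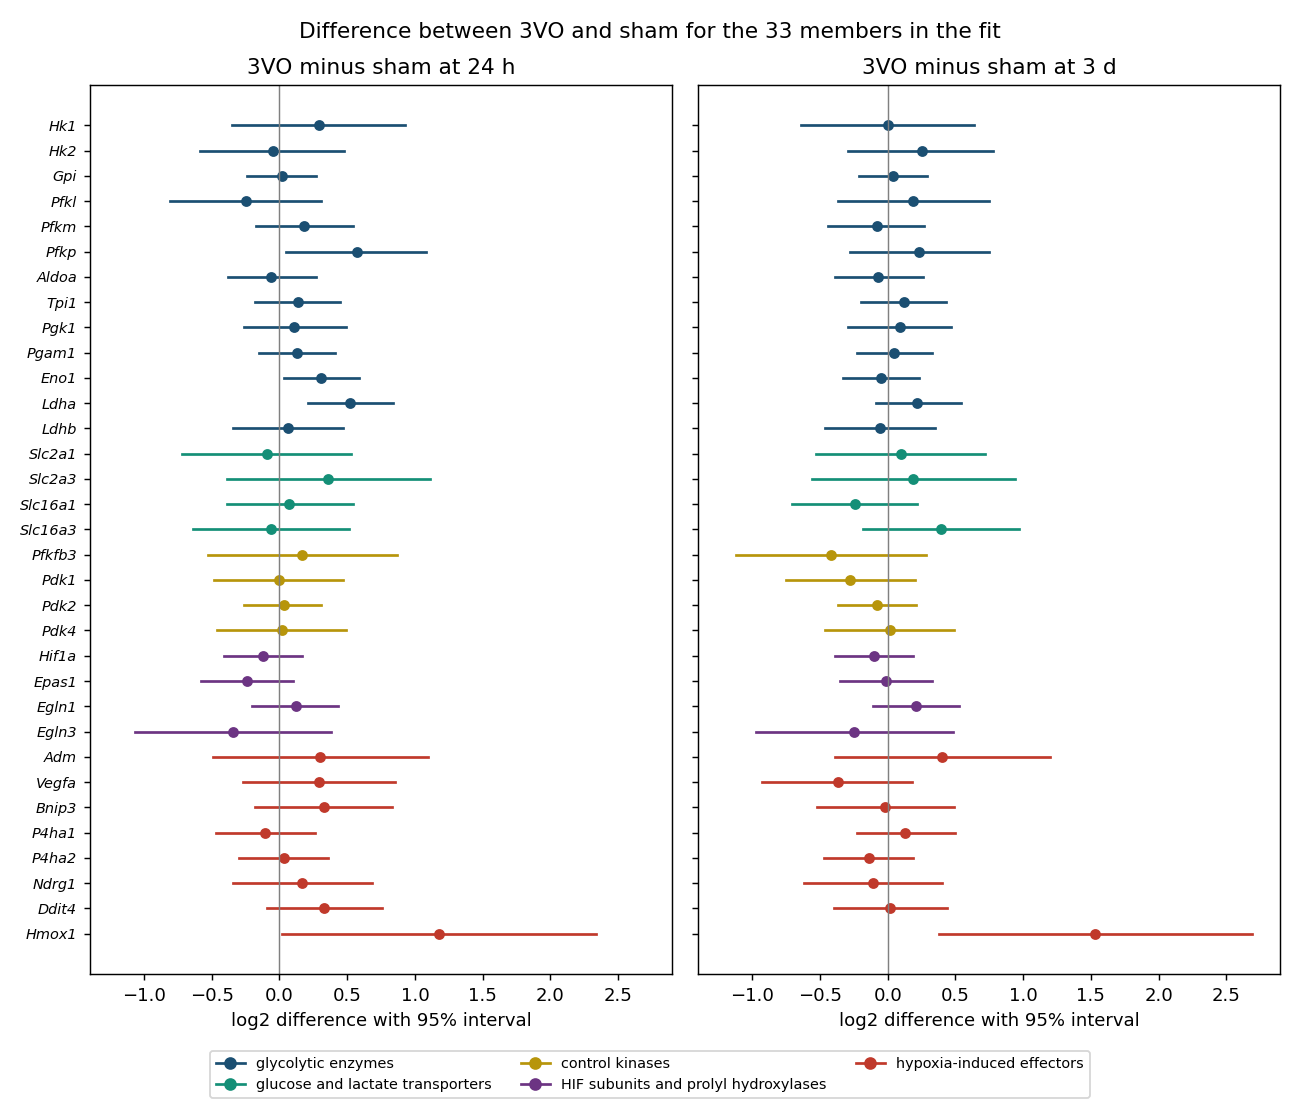
Log2 difference between 3VO and sham (horizontal axis, points) with its 95% interval (lines) for the 33 members in the fit, at 24 h on the left and at 3 d on the right, coloured by role. At 24 h the intervals of Ldha, Eno1, Pfkp and Hmox1 lie above 0, at 3 d only that of Hmox1 does, and no member passed after adjustment.

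Counted without a test, 5 of the 33 members were higher in 3VO than in sham at 24 h with no overlap between arrays (Pfkp, Eno1, Ldha, Ddit4 and Hmox1), where 6.42% of all probe sets were, and 0 were lower, where 9% of all were. At 3 d 2 were higher, Pgk1 and Hmox1, beside 4.34% of all, and 2 were lower, Pdk1 and Vegfa, beside 4.75%. Of the 13 glycolytic enzymes in the fit, 10 had a positive log2 difference at 24 h with a median of 0.13, and 8 at 3 d with a median of 0.05. Of the 8 effectors, 7 were positive at 24 h with a median of 0.30, and 4 at 3 d with a median of 0.00. Over all probe sets 47.3% were positive at 24 h, with a median of -0.02, and 48.5% at 3 d, with a median of -0.01. The difference between the classes was not tested. Of the 21 members followed through every alternative, 7 kept the sign of their difference at 24 h in all of them (Pfkp, Eno1, Ldha, Epas1, Ndrg1, Ddit4 and Hmox1), and 14 turned in at least 1. At 3 d 5 kept it (Hk2, Ldha, Slc16a3, Pfkfb3 and Hmox1), 15 turned, and Hk1 stood at 0.00. Without the sham array of conflicting text, Eno1 at 3 d stood at 0.02 and Ndrg1 at 0.10, both turned in sign, and Pfkp stood at 0.40, from 0.23.

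Neuron markers differed in the same direction as the glycolytic enzymes. All 10 measured neuron markers were higher in 3VO than in sham at both times, by a median of 0.96 at 24 h and 0.39 at 3 d, though none passed. Array by array, the centred mean of the 13 enzymes was 0.10, -0.09 and 0.15 in 3VO at 24 h and 0.10, -0.23 and 0.08 in 3VO at 3 d. The neuron marker mean on the same arrays was 0.51, -0.33 and 0.66, then 0.36, -0.85 and 0.47, so the array low in the one was low in the other at each time. The sham arrays did not match in this way. Their enzyme mean was -0.05, -0.12 and -0.12 at 24 h and -0.07, -0.13 and -0.06 at 3 d. Their neuron mean was -0.87, -0.28 and -0.89, then -0.39, -0.03 and -0.65. Intact arrays gave 0.17, 0.34 and -0.06 for enzymes and 1.33, 0.89 and 0.07 for neuron markers, lowest on the same array but highest on different ones. With the neuron mean as a covariate the median difference of the enzymes at 24 h was -0.08, with 3 of 13 positive. Ldha then stood at 0.45, Pfkp at 0.23 and Eno1 at 0.25. With both 3VO arrays of replicate number 2 also left out, that median was 0.10, with 8 of 13 positive. Markers of the vessel wall and of blood differed the other way. All 8 smooth muscle markers were lower in 3VO than in sham, by a median of -0.62 at 24 h and -0.39 at 3 d, as were all 6 measured endothelial markers, at -0.22 and -0.26, and all 5 erythroid markers, at -0.40 and -0.71. None of these passed. What any of these cell types contributed to the enzyme signal was not tested.

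**Figure D3:**
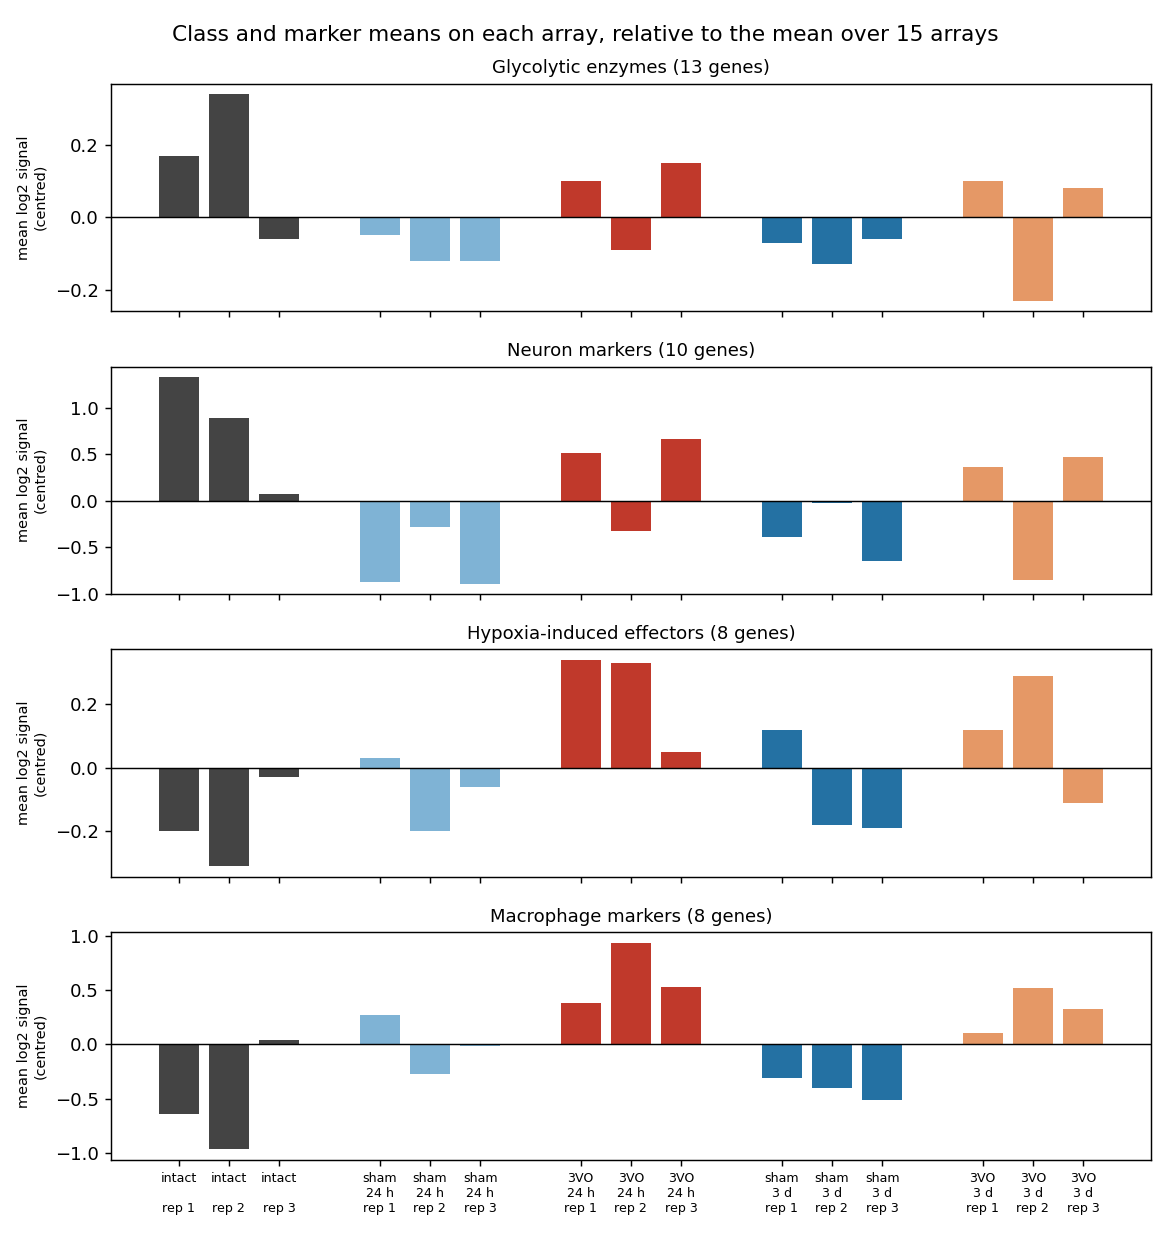
Mean log2 signal centred over the 15 arrays (vertical axis, scale set per panel) of the 13 glycolytic enzymes, 10 neuron markers, 8 hypoxia-induced effectors and 8 macrophage markers, as 1 bar for each array. The enzyme and neuron bars are both lowest among the 3VO arrays on replicate 2 at each time, where the macrophage bars are highest.

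Against intact arteries, which all 4 operated groups share as their control, again no member passed. Sham at 24 h and sham at 3 d had 0% of all probe sets called, 3VO at 24 h had 0.184% and 3VO at 3 d had 0.222%. The moderated F-test for any difference among the 5 groups called 0.0763% of all probe sets and no member. At an unadjusted p under 0.05 it held 7 members, beside 12.1% of all probe sets, and the 4 contrasts held 6, 8, 7 and 7 members, beside 15%, 14.2%, 9.96% and 12.9% of all in the order above.

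Most glycolytic enzymes were lower after surgery of either kind. In sham at 24 h 11 of 13 had a negative log2 difference from intact, with a median of -0.28, and in sham at 3 d 11 of 13, with a median of -0.19. The medians were -0.05 in 3VO at 24 h, where 8 of 13 were negative, and -0.15 in 3VO at 3 d, where 10 of 13 were. Over all probe sets the 4 medians were 0.04, 0.08, 0.00 and 0.07 in the same order, and 54.2%, 58.8%, 50.6% and 57% were positive. All 10 neuron markers were also lower in both sham groups than in intact arteries, by a median of -1.51 at 24 h and -1.12 at 3 d. All 5 measured choroid plexus markers were lower there too, at -1.56 and -0.54. The 8 smooth muscle markers were all higher in sham than in intact arteries, at 0.41 and 0.27, as were the 6 endothelial markers, at 0.70 and 0.54, and the 5 erythroid markers, at 0.58 and 0.69, though none passed. Against intact, macrophage markers had medians of 0.45 in sham at 24 h and 0.06 in sham at 3 d, with 8 and 6 of 8 higher. In 3VO all 8 were higher than in intact arteries, by a median of 0.96 at 24 h and 0.75 at 3 d. Of these, 3 passed at 24 h and 1 at 3 d. The part of these cell types in the enzyme values was not tested. With the neuron mean as a covariate the enzyme medians in the sham groups were 0.01 and -0.03. The 8 effectors had medians of 0.17 in sham at 24 h, 0.06 in sham at 3 d, 0.29 in 3VO at 24 h and 0.10 in 3VO at 3 d, with 6, 5, 6 and 5 of them positive. In sham at 3 d that median was -0.05 without the array of conflicting text and -0.01 after median centring. With the neuron mean as a covariate the effector medians were -0.06 in sham at 24 h, -0.10 in sham at 3 d and -0.03 in 3VO at 3 d, so the sign of each turned, and in 3VO at 24 h the median was 0.26.

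Pfkm, the muscle form of phosphofructokinase, had the smallest adjusted p of any member against intact. It read 29612, 26030 and 21538 in intact arteries and 16877, 19730 and 19684 in sham at 3 d, then 21487, 15081 and 16993 in 3VO at 3 d. Every array of every operated group lay below the lowest intact array. The log2 differences were -0.67 (-1.03 to -0.32, adjusted limma p 0.135) in sham at 24 h, -0.49 in 3VO at 24 h, -0.45 in sham at 3 d and -0.53 in 3VO at 3 d. Aldoa, the aldolase of muscle and most tissues, read 133115, 139957 and 153656 in intact arteries and no more than 121535 on any operated array. It read 120187, 110157 and 105229 in sham at 24 h, 108228, 98382 and 116638 in 3VO at 24 h, 115518, 87890 and 121535 in sham at 3 d, and 112213, 93845 and 101386 in 3VO at 3 d. The log2 differences of Aldoa ran from -0.47 to -0.35, and the smallest adjusted limma p was 0.215. Pgam1, a phosphoglycerate mutase, read 68801, 63188 and 54153 in intact arteries, then 44385, 44408 and 47726 in sham at 24 h and 44862, 48311 and 43289 in sham at 3 d. Both sham groups lay below all intact arrays, with a log2 difference of -0.44 and adjusted limma p-values of 0.162 and 0.196. In 3VO, Pgam1 read 46276, 48533 and 55089 at 24 h and 46061, 41801 and 54354 at 3 d, and each group had 1 array within the intact range. With the neuron mean as a covariate Pfkm in sham at 24 h stood at -0.25, Pgam1 at -0.17 and Aldoa at -0.36. Without intact replicate 3, Pfkm and Pgam1 passed in sham at 24 h, and Ndrg1 passed in 3VO at 24 h.

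Pfkfb3, whose product makes the activator of phosphofructokinase, was higher on nearly all operated arrays. It read 1139, 1045 and 1044 in intact arteries, 825, 2019 and 2242 in sham at 24 h, 1813, 1772 and 1679 in 3VO at 24 h, 1967, 2752 and 2754 in sham at 3 d, and 2368, 1748 and 1505 in 3VO at 3 d. All operated arrays but 1 sham array at 24 h were above all intact arrays. The log2 differences were 0.52, 0.70, 1.18 and 0.77 in that order, and the smallest adjusted limma p was 0.175, in sham at 3 d. Against sham, Pfkfb3 in 3VO stood at 0.17 (-0.53 to 0.87) at 24 h and -0.42 (-1.12 to 0.28) at 3 d. The 24 h value was -0.28 without sham replicate 1, 0.36 without sham replicate 2 and 0.44 without sham replicate 3, so its direction rested on 1 array. Pdk2, a kinase that inhibits pyruvate dehydrogenase, read 12724, 10725 and 10198 in intact arteries, 8702, 8647 and 8423 in sham at 3 d and 8424, 7028 and 9062 in 3VO at 3 d. At 24 h Pdk2 read 9031, 9078 and 10448 in sham and 9667, 8606 and 10928 in 3VO. Both groups at 3 d were below intact without overlap, with log2 differences of -0.38 and -0.46 and adjusted limma p-values of 0.251 and 0.185. In the sham arteries Vegfa stood at -0.62 (-1.18 to -0.07) at 24 h and Ndrg1 at 0.51 (0.00 to 1.02), with 95% intervals that take no account of the number of probe sets.

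**Figure D4:**
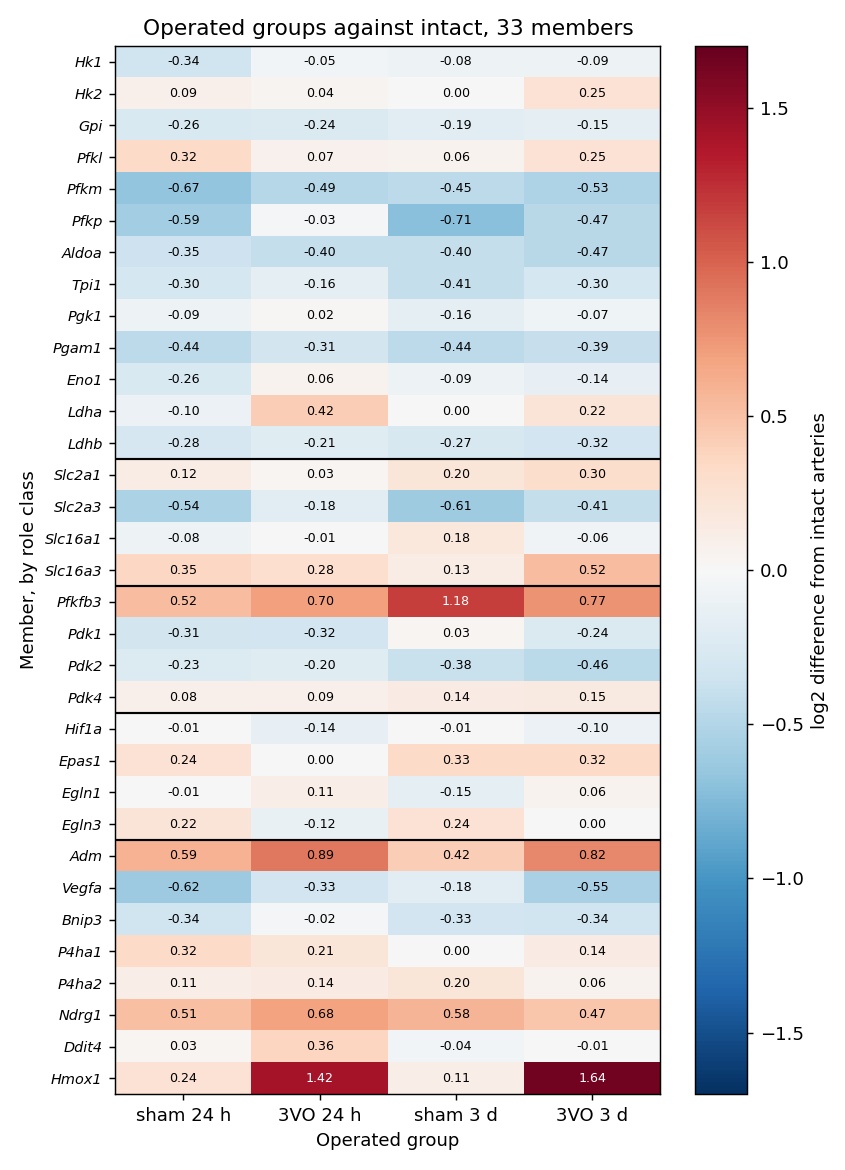
Log2 difference from intact arteries (colour and printed value) for the 33 members in the fit (rows, divided by role) in the 4 operated groups (columns). Pfkm, Aldoa and Pgam1 are negative in all 4 columns, Pfkfb3, Adm and Ndrg1 are positive in all 4, and Hmox1 stands out in the 3VO columns.

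Without a test, 7 members were lower in sham at 24 h than in intact arteries with no overlap (Gpi, Pfkm, Pfkp, Aldoa, Pgam1, Eno1 and Vegfa), beside 7.41% of all probe sets, and 0 were higher, beside 9.96%. In sham at 3 d 5 were lower (Pfkm, Pfkp, Aldoa, Pgam1 and Pdk2), beside 5.34%, and 1 was higher, Pfkfb3, beside 9.86%. For 3VO at 24 h 3 were lower (Gpi, Pfkm and Aldoa), beside 6.19%, and 3 higher (Ldha, Pfkfb3 and Hmox1), beside 7.59%. For 3VO at 3 d 4 were lower (Pfkm, Aldoa, Pdk2 and Vegfa), beside 5.11%, and 3 higher (Pfkfb3, Epas1 and Hmox1), beside 10.3%.

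A wider list of 90 genes of glycogen, pentose phosphate and pyruvate metabolism, hypoxia sensing and the partners of Hmox1 had 74 in the fit, and none passed in any contrast or in the F-test. In 3VO against sham 33 of the 74 were higher and 41 lower at 24 h, with a median of -0.02, and 38 were higher and 36 lower at 3 d, with a median of 0.02. The 3 with the smallest F-test p were Nos2, Pygl and Eno2. Nos2, the inducible nitric oxide synthase, read 314, 2047 and 3352 in sham and 234, 275 and 172 in 3VO at 24 h, then 288, 352 and 434 in sham and 4333, 804 and 4046 in 3VO at 3 d. It was lower in 3VO than in sham at 24 h and higher at 3 d, each time without overlap. The log2 differences were -2.46 (adjusted limma p 0.505) and 2.72 (adjusted limma p 0.703). From intact arteries Nos2 stood at 2.49 in sham and 0.02 in 3VO at 24 h. At 3 d it stood at 0.65 in sham and 3.37 in 3VO. The high sham readings at 24 h were on replicates 2 and 3. Pygl, a glycogen phosphorylase, read 1393, 1186 and 1607 in intact arteries and 2153 or more on every operated array, with log2 differences from intact of 0.87 to 1.17 and a smallest adjusted limma p of 0.102. Eno2, the neuronal enolase, read 37054, 29059 and 20067 in intact arteries and 11566 to 24169 on the operated arrays, with log2 differences of -0.99 to -0.52.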

How the data were processed

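Pooled RNA was read on 15 arrays, 5 groups of 3, which may share pools, and the number of arrays limits the precision. Each value is an array signal on a linear scale, a deposited intensity from GCOS that was scaled to a common level, per the labels and the submitters' processing notes; its version is not given here. That level is 500 in the series text, but with 2% trimmed from both ends all arrays had a mean of 5000, so the pseudocount and signal minimum are looser on this scale. Medians per array were 2553.4 to 2938.4.

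Symbols came from the platform annotation, updated through RefSeq tables: of 15923 probe sets 12783 had 1 gene, 312 several and 2771 none, and 57 were array controls, which were left out. Values were taken as log2(signal + 16). A probe set entered the test if its signal reached 100 on 3 or more arrays, which left 15737 for limma 3.58.1 in R 4.3.3: 5 group means, 7 contrasts and an F-test, eBayes with a variance trend, 2-sided, Benjamini-Hochberg adjustment over all probe sets tested and a threshold of 0.05. Log2 differences compare group means on this scale and come with limma's 95% interval; a fold is 2 to that power. Data were simulated for 3VO against sham at 24 h in 5 runs of 15737 probe sets. Log2 changes of 1, 1.5, 2 and 3 were each given to 250 probe sets in total over the runs. They were called in 42.4%, 62.8%, 68.4% and 84.8% of cases. Summed over the same runs, 27 calls fell on probe sets given no change. Noise was drawn independently for each probe set, without the shared differences in brain tissue between these arrays. Each run changed more probe sets than the 8 called in the real contrast, and no change under 1 was given. The rates may therefore be too high for the members, most of which differed by less than 1. No 2 arrays of a group were copies: at most 26 values were equal between any pair.

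The members, the wider list and the marker lists were chosen with earlier results of these data known. Signals on every array are given for members that passed in any contrast, for the 4 with the smallest p in each contrast with sham or intact, and for a set chosen whatever its values; of the wider list the 3 with the smallest F-test p were named because none passed. Where a gene had several probe sets (11 members), the brightest was used. Promoter windows and build GRCr8 are those of RefSeq; 31 of 35 members had an entry. Alternatives were other pseudocounts and filters, quantile and median scaling, no variance trend, array weights, gene means, the contrast's groups alone, brain markers as covariates and leaving out each array.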

Additional observations from a re-analysis of the deposited data

Results flagged for a closer look

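Nos2 differed in opposite directions between the times. All 3 3VO arrays were below all 3 sham arrays at 24 h and above them at 3 d. The log2 difference in 3VO against sham was 5.19 higher at 3 d than at 24 h (95% interval 2.89 to 7.49, limma p 0.000236), and the adjusted limma p was 0.999 over all probe sets. Nos2 was picked from these same values, and the interval and the limma p take no account of that choice. Signals were low in intact arteries, at 164, 363 and 175. Against those, Nos2 at 24 h stood at 2.49 in sham and at 0.02 in 3VO. The sham array at 3 d with the conflicting treatment text read 288, below the 352 and 434 of the others of its group.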

How the results depend on the processing

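No member passed in 3VO against sham, at either time or in the change between them, under other pseudocounts, filters, scalings, variance models, gene means, the contrast's groups alone or without any single array. With the neuron markers, or the neuron and choroid plexus markers, as covariates, 1 member (Hmox1) passed at 24 h, and 1 in the F-test. Without intact replicate 3, members called ranged up to 2 in sham at 24 h against intact and up to 1 in 3VO at 24 h against intact, from 0 with all arrays; the cause was not tested.

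With those 2 covariate choices in turn, the median difference of the glycolytic enzymes was -0.08 and -0.06 in 3VO against sham at 24 h, 0.01 and 0.08 in sham at 24 h against intact, and -0.03 and 0.05 in sham at 3 d against intact. That of the effectors was -0.06 and -0.14 in sham at 24 h, and -0.14 with both in sham at 3 d. With both 3VO arrays of replicate number 2 left out and the neuron markers as a covariate, chosen after seeing the data, the enzymes stood at -0.12 in sham at 24 h, and the effectors at 0.47 in 3VO against sham at 24 h, -0.20 in sham at 24 h and -0.18 in sham at 3 d against intact. Leaving out each array in turn, the enzyme median ranged from -0.38 to -0.08 in sham at 3 d, -0.31 to -0.02 in 3VO at 24 h and -0.42 to -0.09 in 3VO at 3 d against intact, lowest without intact replicate 3 each time, and the effector median from 0.11 to 0.35 in 3VO against sham at 24 h, lowest without 3VO replicate 1. The cause was not tested. No paired analysis was possible because the labels give the arrays no shared replicate numbers across groups.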
